A study of Mus musculus with 6 samples.

Results

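The genes described here are 29 protein-coding genes named in earlier work as targets of the microRNA miR-21, taken by gene symbol from a table of 20199 genes. All 29 were in the table and all 29 passed the filter on low counts, as did 15185 genes in all. Other reported targets, such as Reck, form a separate list that is summarised further down. Levels come from RNA sequencing of mouse aortic smooth muscle cells, in 3 wild type and 3 miR-21 knockout libraries. Per the labels, the wild type samples were WT/mTmG/Myh11ERT2 and the knockout samples carried miR-21 fl/fl with the same mTmG and Myh11ERT2 alleles. The strain is given as C57B6 and the age as 12 weeks in both groups. mTmG is a fluorescent Cre reporter, and Myh11ERT2 is a tamoxifen-inducible Cre driver under the smooth muscle myosin promoter, so a floxed allele would be removed only in cells that express Myh11. The labels leave unsaid if tamoxifen was given and how cells were obtained or grown. Nor do they say that the 3 samples of a genotype came from separate animals, so p-values measure only the spread among these samples, which may be technical.

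MicroRNAs are short RNAs that guide Argonaute proteins to messenger RNAs, mostly through pairing between the seed of the microRNA and the 3′ UTR of the message. The pairing lowers translation and often the level of the message, so a target message can be more abundant where its microRNA is missing. miR-21 is abundant in vascular smooth muscle and is known for its induction after vessel injury and for targets that restrain survival and growth signals, with Pdcd4 the most widely used reporter of its activity. Mir21a itself was not analysed here, so the deleted gene does not check the labels.

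The sequences below show the part of miR-21 that pairs with targets and the matches to it in the genes with the smallest p-values and in a few others described below. The mature microRNAs are from RefSeq on GRCm38.p6. miR-21a-5p lies at chr11:86584120-86584141 on the minus strand, and its seed, bases 2 to 8, is in capitals. In the RefSeq set 1 other mature mouse microRNA, miR-21c, holds the same seed.
mmu-miR-21a-5p: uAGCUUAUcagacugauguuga
mmu-miR-21c: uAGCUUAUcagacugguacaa

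Each gene's longest 3′ UTR in the GENCODE vM1 transcripts was read on the sense strand for an 8mer (ATAAGCTA), a 7mer-m8 (ATAAGCT) or a 7mer-A1 (TAAGCTA), and a gene was classed by its best match. The 8mer holds both 7mers, so a gene is counted once. Capitals below mark the match, with up to 20 bases before it and a pair of bases after it, in DNA letters. Spg20, Plekha1, Cdc25a and Bcl2 had the smallest p-values of the list, Pdcd4 is the reporter gene, Acvr2a had 3 matches of which the first is shown, and Tgfbi and Btg2 varied widely with single libraries.
Spg20: cccaacaggattttcagcagATAAGCTAaa
Plekha1: accactcaccttttgtattcATAAGCTAat
Cdc25a: tccaggcttggctacaggacATAAGCTAac
Bcl2: atcataggaaattattttttTAAGCTAcc
Pdcd4: accgaagtgtgggtgttctgATAAGCTAct
Acvr2a: ggactctgaactggagctgcTAAGCTAag
Tgfbi: gctggagaaacggcatcactATAAGCTAtg
Btg2: aagaaatagtggtaagtttgTAAGCTAtt

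The Spg20 match spans bases 454 to 461 of a 3′ UTR of 1642 bases, and that of Plekha1 bases 1886 to 1893 of 2524. In Cdc25a it spans bases 722 to 729 of 1669, in Bcl2 bases 704 to 710 of 5086 and in Pdcd4 bases 289 to 296 of 718. An 8mer or 7mer was found in 24 of the 29 targets (82.8%), against 1323 of the 11009 tested protein-coding genes with a 3′ UTR to search (12.0%). The best match was an 8mer in 12 targets, a 7mer-m8 in 8 and a 7mer-A1 in 4. Apaf1, Pelo, Sesn1, Rhob and Marcks held none of these letters in the UTR searched. Seed matches are one ground on which targets are proposed, so the 82.8% describes the list and is not a result of these libraries. The targets' UTRs were also longer than most, with a median of 2011 bases against 1227 bases over all genes searched.

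Library totals ran from 17123748 to 28610649 counts. Wild type replicate 1 stood apart: on the first principal component of all tested genes (40.6% of the variance) it lay at -58.1, with the other 5 libraries between 1.53 and 27.3. It was the lowest library for 14 of the 29 targets. Summary values of the 29 targets and of their role groups, and the main partner counts, are therefore given with and without it. Single targets are given without it where stated. The 10 contractile markers were present in every library at a summed 44337 to 51068 CPM (counts scaled to the library size) in wild type and 46060 to 47322 CPM in knockout. Summed endothelial markers were 78.5 to 97.7 CPM and 81.5 to 105 CPM, and fibroblast markers 205 to 241 CPM and 158 to 238 CPM, in wild type and knockout. Macrophage markers summed to 4.16 to 9.03 CPM in wild type against 1.59 to 8.98 CPM in knockout, and erythroid markers to 387 to 1186 CPM and 823 to 1019 CPM. Nerve and Schwann markers, 4 of 6 of them in the table, were the only list whose genotypes did not overlap, at 2.87 to 3.80 CPM in wild type and 1.71 to 2.65 CPM in knockout. Striated muscle markers summed to 26.4 to 44.9 CPM and 24.1 to 27.2 CPM in the same order. No marker in the table was at 0 in every library, and the part of these cells in the results was not tested. In such bulk samples, fewer cells that express a gene and less RNA per cell cannot be told apart.

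Taken as a list, the targets lay slightly above wild type in the knockout, but none passed the test. Of 29 targets 21 had a higher fitted mean in knockout and 8 a lower one, while 49.9% of all genes tested were higher. The median log2 fold change (knockout over wild type) was 0.14 for the targets and 0.00 for all genes tested. Without wild type replicate 1 the median of the targets was 0.08, with 23 higher and 6 lower. No target, and no gene among all 15185 (0%), had an adjusted p below 0.05 in edgeR's quasi-likelihood test, and limma voom likewise called 0 genes, with the same 4 targets below an unadjusted p of 0.05 (6.52% of all genes). At an unadjusted p below 0.05, 4 targets differed, Spg20, Cdc25a, Plekha1 and Bcl2. All 4 were higher in knockout, against 955 genes in all (6.29%), of which 433 were higher (2.85%) and 522 lower (3.44%). With library totals as the scale 1019 genes had such a p, 643 higher and 376 lower. In 5 targets, those 4 and Ntf3, every knockout library was above every wild type library, which was so for 6.95% of all genes. In 0 targets was every knockout library lower, against 7.57% of all genes. DESeq2, an alternative test, called Spg20 only, against 69 of 14596 genes with an adjusted p (0.473%), 17 of them higher (0.116%). The number of targets with a higher fitted mean was 18 to 23 when any 1 library was left out.

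**Figure D1:**
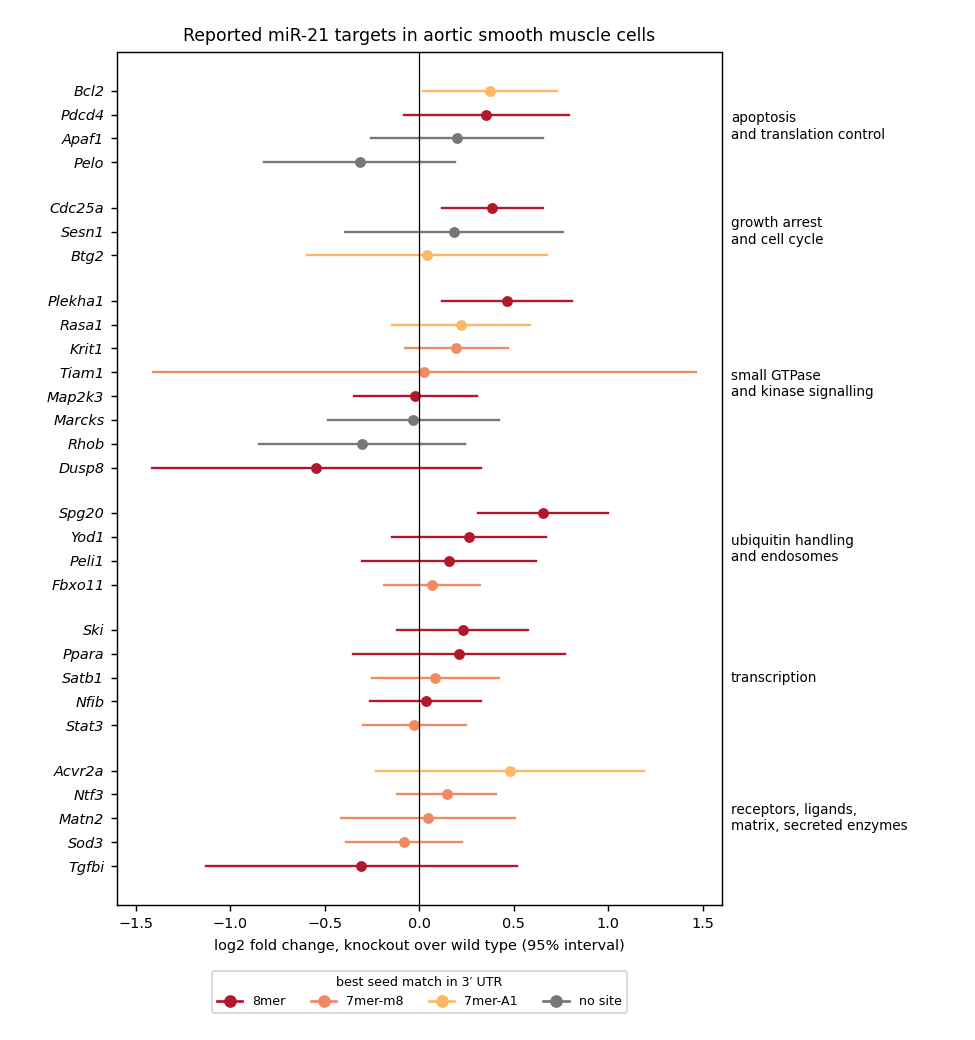
Log2 fold change of each of the 29 reported targets, knockout over wild type (x axis, edgeR estimate as a point, 95% interval as a line), grouped by role and coloured by the best seed match in the 3′ UTR. The intervals of Spg20, Plekha1, Cdc25a and Bcl2 lie above 0 before adjustment, and no interval lies wholly below 0.

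Among the genes of apoptosis and translation control, 3 of 4 were higher in knockout and 0 passed the test, with a median log2 fold change of 0.28 that was 0.13 without wild type replicate 1. Values below are CPM scaled by TMM factors, listed for replicates 1, 2 and 3 of each genotype. Pdcd4, which binds the helicase eIF4A and restrains translation initiation, stood at 9.51, 14.1 and 9.91 CPM in wild type and at 16, 11.9 and 14.9 CPM in knockout. Wild type replicate 2 was above knockout replicate 2, so the groups overlapped. The means were 11.2 ± 2.53 and 14.3 ± 2.13 CPM (SD, n = 3), a log2 fold change of 0.35 ± 0.19 (SE; 95% interval -0.08 to 0.79) with an edgeR adjusted p of 0.778. The interval covers folds from 0.944 to 1.73. Pdcd4 lies at chr19:53892231-53929861 on the plus strand of mm10, and it had 160 to 420 counts per library.

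Bcl2, the inhibitor of mitochondrial apoptosis, stood at 94.5, 80.1 and 85.5 CPM in wild type and at 96.9, 139 and 101 CPM in knockout. All 3 knockout libraries were higher, with knockout replicate 1 close to wild type replicate 1 and knockout replicate 2 the farthest. The log2 fold change was 0.37 ± 0.16 (SE), with an edgeR p of 0.0408 before and 0.778 after adjustment. Without knockout replicate 2 it was 0.19. Bcl2 lies at chr1:106538178-106714274 on the minus strand. Apaf1, the scaffold of the apoptosome and one of the 5 targets without a match, stood at 7.61, 12.6 and 12.3 CPM in wild type and at 13.7, 12.4 and 11.5 CPM in knockout. Only wild type replicate 1 was clearly lower than the rest, and the log2 fold change of 0.20 ± 0.20 (SE; adjusted p = 0.818, edgeR) was 0.01 without it. Pelo, a factor that rescues stalled ribosomes, ran the other way at 6.03 ± 1.13 CPM in wild type against 4.80 ± 0.856 CPM in knockout (SD, n = 3), with overlapping groups and an edgeR adjusted p of 0.781.

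In the group of growth arrest and the cell cycle all 3 genes had a higher fitted mean (2 of 3 without wild type replicate 1), and 0 passed the test. Cdc25a, a phosphatase that activates cyclin-dependent kinases, stood at 16.5, 17.9 and 16.3 CPM in wild type and at 22, 22.3 and 22 CPM in knockout. The 3 knockout libraries nearly coincided, and all lay above the wild type libraries. Means were 16.9 ± 0.874 and 22.1 ± 0.167 CPM (SD, n = 3), 1.31-fold higher in knockout (95% interval 1.09 to 1.57), with an edgeR p of 0.00962 before and 0.683 after adjustment. The log2 fold change of 0.39 ± 0.12 (SE) kept between 0.36 and 0.44 when each library was left out. Cdc25a lies at chr9:109875579-109893895 on the plus strand.

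Btg2, an antiproliferative adaptor that brings the Ccr4-Not deadenylase to messages, was highly expressed and had no steady direction. It stood at 2169, 1637 and 1665 CPM in wild type and at 1222, 2817 and 1585 CPM in knockout, so that knockout replicates held both the lowest and the highest value. The log2 fold change was 0.04 ± 0.28 (SE; 95% interval -0.59 to 0.67; adjusted p = 0.977, edgeR), and it was -0.04 with limma voom. Sesn1, a p53-induced regulator of mTORC1, stood at 35.8, 80.4 and 74.4 CPM in wild type and at 72.9, 68.5 and 75.6 CPM in knockout. Wild type replicate 1 alone was low, and the log2 fold change went from 0.18 to -0.10 without it.

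The 8 genes of small GTPase and kinase signalling split into 4 higher and 4 lower fitted means, with a median log2 fold change of 0.00 and 0 past the test. That split rested on wild type replicate 1: without it all 8 had a higher fitted mean and the median was 0.12, while without wild type replicate 2 only 3 were higher and the median was -0.09. Plekha1, an adaptor that binds phosphoinositides through its PH domain, stood at 97.0, 139 and 111 CPM in wild type and at 156, 176.5 and 147 CPM in knockout. Every knockout library was higher, although wild type replicate 2 came close to knockout replicate 3. The fold was 1.38 (95% interval 1.09 to 1.75; log2 0.46 ± 0.15, SE), with an edgeR p of 0.0141 before and 0.760 after adjustment, and a DESeq2 adjusted p of 0.362. Without wild type replicate 1 its log2 fold change was 0.35. Plekha1 lies at chr7:130865756-130913312 on the plus strand. Rasa1, a GTPase-activating protein that switches Ras off, stood at 38.2, 59.5 and 50.3 CPM in wild type and at 61.4, 55.2 and 56.1 CPM in knockout. The groups overlapped through wild type replicate 2, the log2 fold change was 0.22 ± 0.16 (SE; adjusted p = 0.782, edgeR), and it was 0.07 without wild type replicate 1. Krit1, a scaffold of the cerebral cavernous malformation complex that binds Rap1, averaged 61.9 ± 5.94 and 71.0 ± 5.78 CPM (SD, n = 3).

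Rhob, an endosomal small GTPase, stood at 563, 338 and 322 CPM in wild type and at 266, 416 and 308 CPM in knockout. Wild type replicate 1 was the highest library and knockout replicate 1 the lowest, and the log2 fold change of -0.30 ± 0.24 (SE; adjusted p = 0.786, edgeR) was 0.00 without wild type replicate 1. Dusp8, a phosphatase acting on JNK and p38 kinases, showed that order more widely. It stood at 352, 128.5 and 159 CPM in wild type and at 104, 212 and 121 CPM in knockout, and its log2 fold change of -0.55 ± 0.38 (SE; adjusted p = 0.781, edgeR) was 0.02 without wild type replicate 1. Btg2, Rhob and Dusp8 are also genes that respond quickly to stimulation. The summed level of 8 immediate early genes was 23919, 17922 and 21638 CPM in wild type and 12660, 21316 and 19628 CPM in knockout, with the highest value in wild type replicate 1 and the lowest in knockout replicate 1. Its part in the values of these 3 targets was not tested.

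Map2k3, a kinase upstream of p38, averaged 149 ± 23.7 CPM in wild type against 147 ± 14.96 CPM in knockout (SD, n = 3). Marcks, a membrane protein that binds actin and phosphoinositides, averaged 20.3 ± 3.47 and 19.8 ± 5.04 CPM (SD, n = 3). For both, the sign of the log2 fold change (-0.02 and -0.03) turned when library totals replaced the TMM factors. Tiam1, a Rac exchange factor, was barely detected, at 29, 3 and 25 counts in wild type and 15, 20 and 28 counts in knockout. Its 95% interval ran from a log2 fold change of -1.41 to 1.46, so differences within that range are compatible with these libraries.

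**Figure D2:**
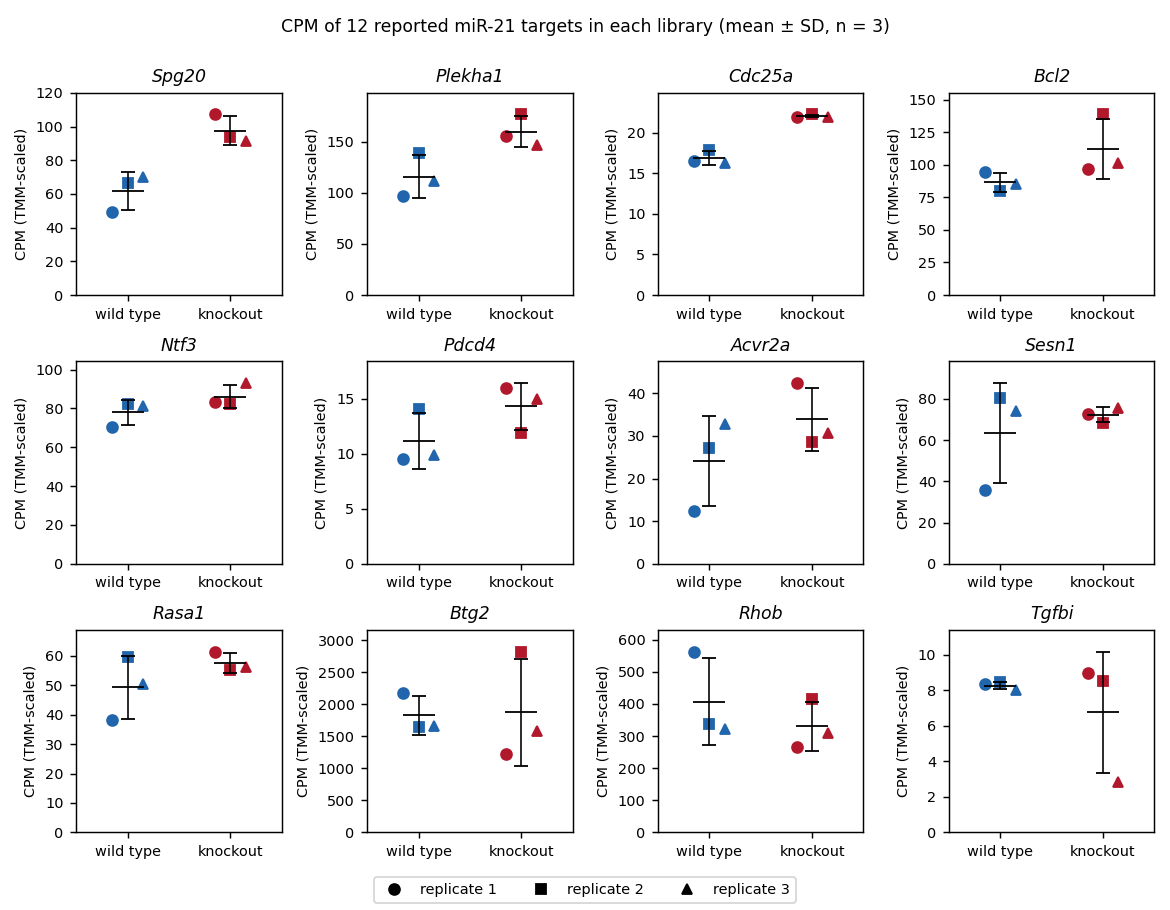
CPM (TMM-scaled, y axis from 0 in each panel) of 12 reported targets in the 6 libraries, with a marker for each library and lines for the mean ± SD of the 3 libraries of a genotype. In the panels of Spg20, Plekha1, Cdc25a, Bcl2 and Ntf3 the knockout markers lie above the wild type markers, for Ntf3 with a gap too small to see, and the other 7 panels overlap.

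All 4 genes of ubiquitin handling and endosomes had a higher fitted mean in knockout, with a median log2 fold change of 0.21 and 0 past the main test. Without wild type replicate 1 all 4 were still higher, and the median was 0.06. Spg20, which encodes spartin, a protein of endosomes and lipid droplets mutated in a hereditary spastic paraplegia, had the smallest p of the 29. It stood at 49.1, 66.5 and 70.0 CPM in wild type and at 107, 94.1 and 91.3 CPM in knockout. Every knockout library was above every wild type library. Means were 61.9 ± 11.2 and 97.5 ± 8.52 CPM (SD, n = 3), 1.57-fold higher in knockout (95% interval 1.24 to 1.999). The log2 fold change of 0.65 ± 0.15 (SE) had an edgeR p of 0.00198, rank 59 of 15185, and an adjusted p of 0.507. With DESeq2 the adjusted p was 0.0346. That call was lost on leaving out wild type replicate 2 (DESeq2 adjusted p = 0.0693) or knockout replicate 1, 2 or 3 (0.478, 0.238 and 0.376), while the log2 fold change in edgeR ran from 0.51 to 0.75 over the 6 omissions. Spg20 lies at chr3:55112108-55137322 on the plus strand of mm10, and it had 826 to 2565 counts per library.

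The other 3 members of that group had genotypes that overlapped. Yod1, a deubiquitinase, averaged 19.6 ± 4.43 CPM in wild type against 23.6 ± 2.30 CPM in knockout (SD, n = 3). Peli1, a ubiquitin ligase of innate immune signalling, averaged 50.5 ± 10.6 and 56.4 ± 13.6 CPM, and Fbxo11, an F-box protein, 27.3 ± 1.22 and 28.7 ± 0.834 CPM. Their edgeR adjusted p-values were 0.778, 0.854 and 0.882. Their log2 fold changes of 0.26, 0.16 and 0.07 were 0.09, 0.02 and 0.03 without wild type replicate 1.

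Among the 5 transcriptional regulators 4 had a higher fitted mean (3 without wild type replicate 1), 0 had an unadjusted p below 0.05 and 0 had groups that stood apart. Ppara, the nuclear receptor that drives fatty acid oxidation genes, was low, at 2.68, 4.37 and 3.01 CPM in wild type and, in the same order, 4.16, 3.50 and 3.99 CPM in knockout. The groups overlapped, and the log2 fold change was 0.21 ± 0.25 (SE; adjusted p = 0.839, edgeR). Without wild type replicate 1 it was 0.08. Stat3, the transcription factor of IL-6 family signalling, stood at 180.1, 182 and 168 CPM in wild type and at 157, 194 and 171 CPM in knockout. The log2 fold change was -0.03 ± 0.12 (SE; 95% interval -0.30 to 0.25; adjusted p = 0.965, edgeR) and turned to 0.01 with library totals. Ski, a corepressor of Smad proteins, averaged 372 ± 70.1 CPM in wild type against 436 ± 28.3 CPM in knockout (SD, n = 3), with an edgeR adjusted p of 0.778. The log2 fold changes of Satb1, a chromatin organiser, and Nfib, a nuclear factor I protein, were 0.08 and 0.03.

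In the last group, of receptors, ligands, matrix and secreted enzymes, 3 of 5 genes had a higher fitted mean, with or without wild type replicate 1, and 0 passed the test. Acvr2a, a type II receptor of activins and the only target with 3 matches, stood at 12.3, 27.1 and 32.9 CPM in wild type and at 42.4, 28.6 and 30.6 CPM in knockout. Wild type replicate 1 was far below the others and knockout replicate 1 above them. The log2 fold change of 0.48 ± 0.31 (SE; adjusted p = 0.778, edgeR), the second highest after Spg20, was 0.17 without wild type replicate 1 and 0.29 if knockout replicate 1 was left out. Ntf3, the neurotrophin ligand of TrkC, stood at 70.6, 82.0 and 81.0 CPM in wild type and at 83.3, 82.0 and 93.0 CPM in knockout. Its groups did not overlap, but the nearest libraries were equal to 3 digits, and the log2 fold change was 0.14 ± 0.12 (SE; adjusted p = 0.786, edgeR). It was 0.08 without wild type replicate 1.

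Tgfbi, a secreted matrix protein induced by TGF-beta, stood at 8.32, 8.44 and 8.02 CPM in wild type and at 8.94, 8.49 and 2.81 CPM in knockout. Knockout replicate 3 alone was low, with 79 counts where the other libraries had 140 to 229, and the log2 fold change went from -0.31 to 0.08 without it. Sod3, the extracellular superoxide dismutase of the vessel wall, stood at 3025, 2519 and 2633 CPM in wild type and at 2384, 2851 and 2508 CPM in knockout. The groups overlapped, with a log2 fold change of -0.08 ± 0.14 (SE; 95% interval -0.39 to 0.23; adjusted p = 0.890, edgeR), which was 0.00 without wild type replicate 1. Matn2, a matrilin of the extracellular matrix, was high in knockout replicate 1 alone, at 45.4 CPM against 27.2 to 34.2 CPM in the other libraries.

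**Figure D3:**
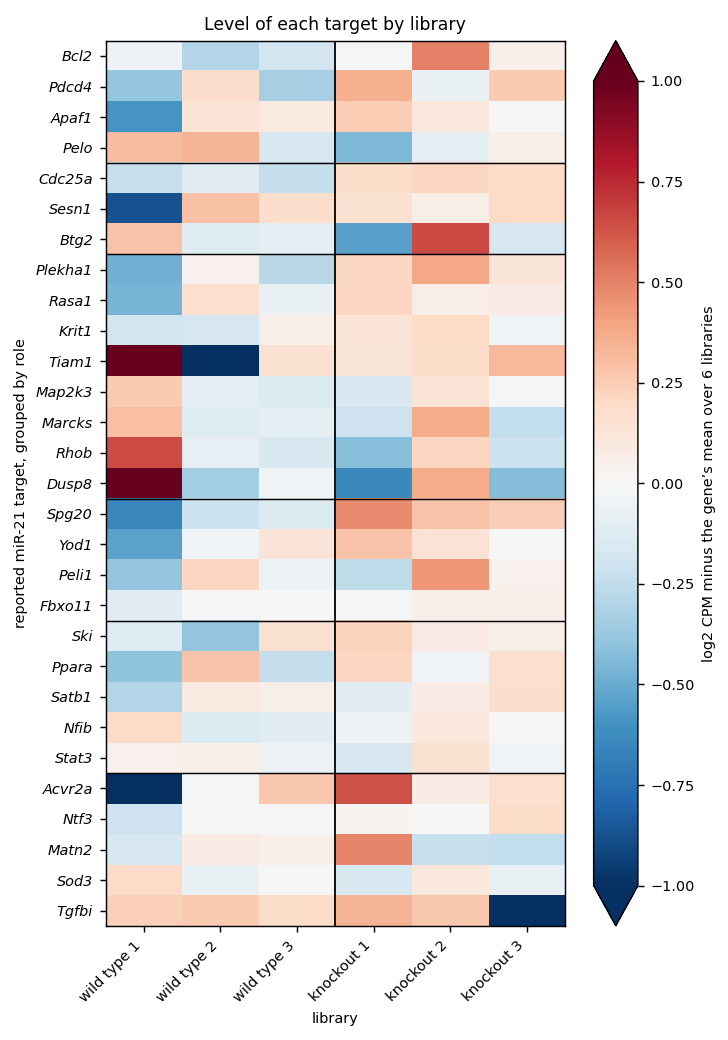
Level of each of the 29 reported targets (rows, grouped by role) in each library (columns), as log2 CPM minus the gene's mean over the 6 libraries, with colours cut off at -1 and 1. Wild type replicate 1 holds the lowest value for 14 targets, and Tgfbi is low in knockout replicate 3 alone.

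**Figure D4:**
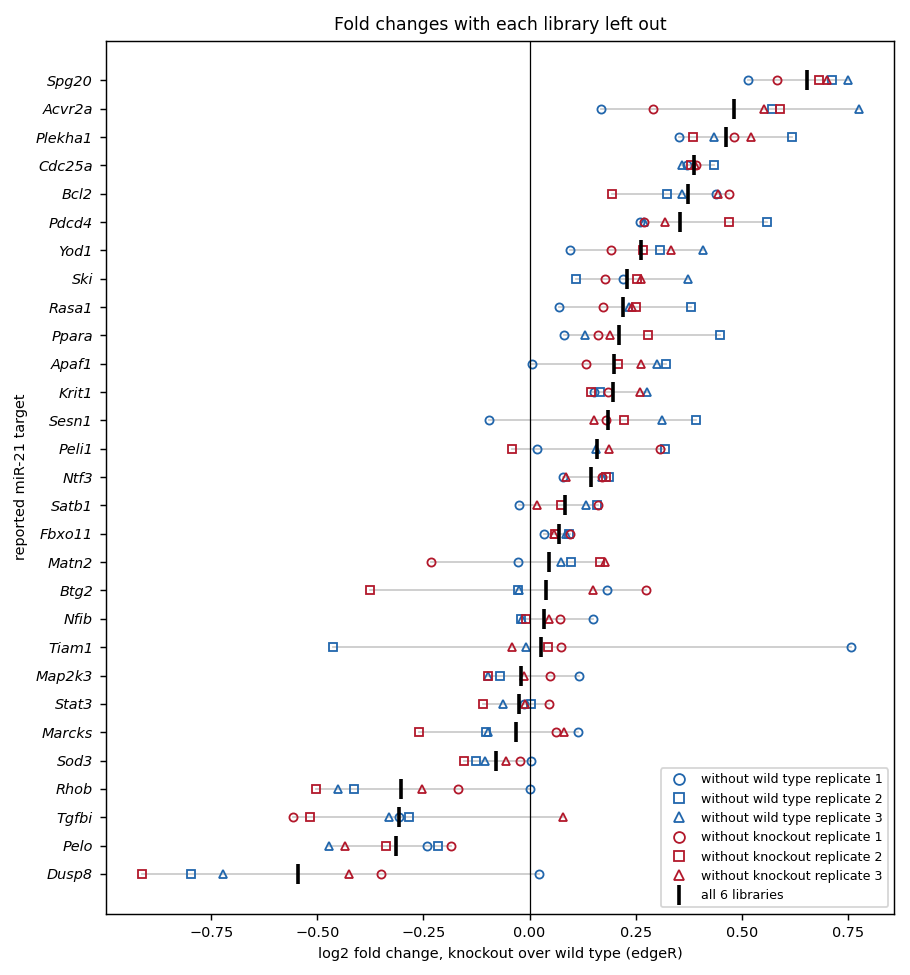
Log2 fold change of each target, knockout over wild type (x axis, edgeR), with all 6 libraries (bar) and with each library left out (open symbols). Spg20, Plekha1, Cdc25a and Bcl2 stay above 0 under all 6 omissions. So do Pdcd4, Apaf1, Rasa1, Krit1, Yod1, Fbxo11, Ppara, Ski, Acvr2a and Ntf3, while Pelo stays below 0. Dusp8 runs from -0.91 to 0.02 and Rhob from -0.50 to 0.00.

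Targets were also set out by seed match, which was read from sequence alone. The targets themselves were chosen with earlier results of these data known, and the classes of all genes include them. The 12 targets with an 8mer had a median log2 fold change of 0.22, beside 0.11 for all 238 genes whose best match is an 8mer (2.16% of those searched). For a 7mer-m8 the medians were 0.06 in 8 targets and 0.08 in 602 genes (5.47%), and for a 7mer-A1 0.30 in 4 targets and 0.06 in 483 genes (4.39%). The 5 targets with no match had a median of -0.03, and the 8177 genes with not even the 6mer TAAGCT (74.3%) one of -0.02. Without wild type replicate 1 the medians over all genes were smaller, at 0.04, 0.02, 0.01 and -0.01 for the 4 classes, and those of the targets were 0.13, 0.02, 0.18 and 0.00. Genes with an 8mer or 7mer had longer UTRs, with a median of 2503 bases against 931 bases where no match was found, and the part of UTR length in these medians was not tested. Within the 8mer class the targets ranged from Spg20 at 0.65 to Dusp8 at -0.55. With all 6 libraries 9 of these 12 targets were higher, beside 162 of the 238 genes of the class. Without wild type replicate 1 Dusp8 was at 0.02, while every other omission left it between -0.91 and -0.35. Without that library 11 of the 12 targets were higher, with quartiles of 0.07 and 0.28, beside 147 of the 238 genes. The 1 lower target was then Tgfbi, at -0.31 with or without that library.

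**Figure D5:**
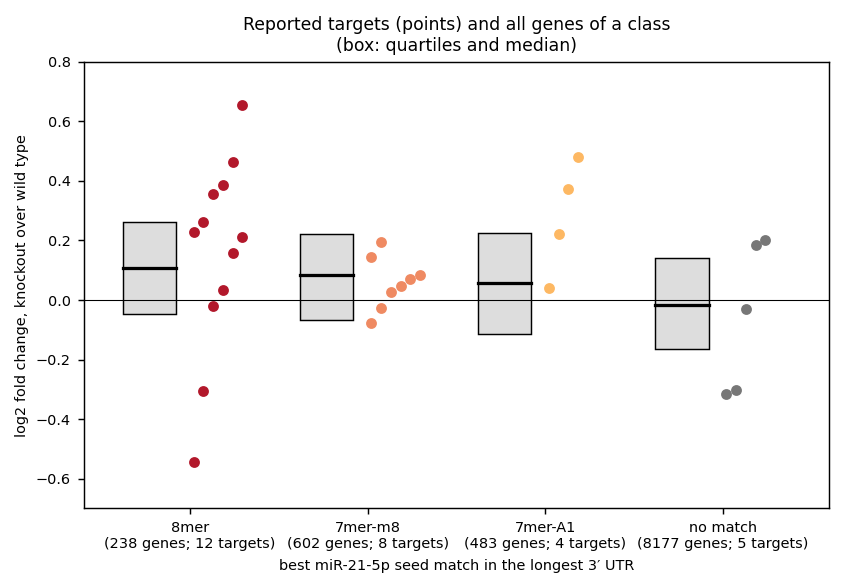
Log2 fold change, knockout over wild type (y axis), of the reported targets (points) beside all tested genes with the same best seed match (box from the lower to the upper quartile, line at the median). The medians of all genes are 0.11 for an 8mer, 0.08 for a 7mer-m8, 0.06 for a 7mer-A1 and -0.02 for no match. The 12 targets with an 8mer spread from -0.55 to 0.65. The lowest, Dusp8, is at 0.02 without wild type replicate 1.

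Further reported targets from other pathways were read from the same fit. Of these 15 genes 13 were tested, with 10 higher and 3 lower fitted means, a median log2 fold change of 0.10 and 0 past the adjusted test. Without wild type replicate 1 there were 8 higher and 5 lower, with a median of 0.06. Reck, a membrane inhibitor of metalloproteinases, was at 112 ± 23.5 CPM in wild type against 151 ± 12.4 CPM in knockout (SD, n = 3), a log2 fold change of 0.43. Spry1, an inhibitor of receptor tyrosine kinase signalling that also holds an 8mer, was at 39.5 ± 4.34 and 30.3 ± 1.77 CPM, a log2 fold change of -0.38. These were the only members of that list with an unadjusted p below 0.05, where 6.29% of all genes had one. Their edgeR adjusted p-values were 0.775 and 0.767. Without wild type replicate 1 the log2 fold changes of Reck and Spry1 were 0.28 and -0.29.

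Partners of the 29 targets in their pathways were read as 20 further lists, of 234 genes in all, of which 220 were tested. In these lists 114 genes were higher and the rest lower, 0 passed edgeR's adjusted test, and 12 had an unadjusted p below 0.05, 6 in each direction, where 6.29% of all genes did. Without wild type replicate 1 there were 108 higher fitted means of 221 tested, and 8 higher and 9 lower at that p (7.44% of all genes). The 12 became 7 higher and 12 lower without wild type replicate 2 (6.85% of all genes). They became 12 and 12 without wild type replicate 3 (8.19%), and 2 and 4 without knockout replicate 1 (3.93%). The share over all genes thus moved between these runs as well. Counts in single lists, from all 6 libraries, are to be read against the 6.29%. The 8 eIF4A and eIF4G partners of Pdcd4 held 0 such genes, with 4 higher and 4 lower. Of 17 tested genes of intrinsic apoptosis 2 were higher at an unadjusted p below 0.05, Bmf and Casp9. Casp9, the caspase activated on the Apaf1 scaffold, was at 18.2 ± 3.59 CPM in wild type against 25.6 ± 4.51 CPM in knockout (SD, n = 3). Of 10 tested genes around Cdc25 and the G1/S transition 1 did so, Cdc25b, the sister phosphatase of Cdc25a. Cdc25b stood at 9.39, 11.8 and 7.53 CPM in wild type and at 17.3, 16.6 and 16.2 CPM in knockout, with every knockout library higher. Its log2 fold change was 0.80 ± 0.18 (SE), with an adjusted p of 0.489 in edgeR and 0.0274 in DESeq2, which was lost without wild type replicate 3 (0.257) or any knockout library (0.269 to 0.412).

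The remaining lists gave few further values. Among 7 tested activin signalling genes, the pathway of Acvr2a, 2 were lower at an unadjusted p below 0.05. Inhbb, the activin B subunit, stood at 12.8, 10.8 and 14.7 CPM in wild type and at 8.48, 5.34 and 6.41 CPM in knockout, lower in every knockout library, with a log2 fold change of -0.93 ± 0.21 (SE) and an adjusted p of 0.489 in edgeR and 0.0291 in DESeq2. The DESeq2 call was lost on leaving out wild type replicate 1 or 3 (0.0560 and 0.357) or knockout replicate 2 or 3 (0.373 and 0.532). Fstl3, a secreted activin inhibitor, was the other gene, at 411 ± 28.4 CPM in wild type against 300.0 ± 34.5 CPM in knockout (SD, n = 3). Of 17 tested PPAR-alpha target genes 1 had an unadjusted p below 0.05, Cpt1a, the carnitine transferase of fatty acid oxidation, at a log2 fold change of 0.43. Of 15 genes of the IL-6 and STAT3 response 1 did, Il6 itself, at 9.55 ± 2.90 CPM in wild type against 4.55 ± 0.933 CPM in knockout, with an adjusted p of 0.507 in edgeR and 0.0437 in DESeq2. That DESeq2 call was lost when any 1 library was left out (adjusted p 0.0537 to 0.654).

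The p53 response held 1 gene of 14 with an unadjusted p below 0.05, Phlda3, at -0.31, and the phosphoinositide adaptors 1 of 8, Marcksl1, the relative of Marcks, at -0.46. Matrilins and relatives of Tgfbi held 1 of 6, Matn4, a low gene at 27, 15 and 39 counts in wild type and 1, 6 and 13 counts in knockout. A further 11 partner lists, on Ccr4-Not, p38 and JNK, Ras regulators, the cavernous malformation complex, ubiquitin handling, ribosome rescue, relatives of Nfib, Satb1 and Ski, neurotrophins, peroxide removal, spartin and the eIF4 factors named above, held 0.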

How the data were processed

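Gene-level expected counts, deposited by the authors as 1 table for the 6 libraries, were used. The unit was read from the values, of which 65.4% were whole to within 0.01, and no source used here names the tool that counted. Trizol RNA and the TruSeq RNA kit were used, per the labels' protocols. STAR 2.6, mm10 and DESeq2 appear in the submitters' processing notes. No source used here says if strand was kept, so reads of overlapping antisense genes cannot be told apart.

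Counts were rounded, filtered with filterByExpr, scaled by TMM factors and tested with edgeR 4.0.16's quasi-likelihood test (R 4.3.3, 2-sided, robust fit), with Benjamini-Hochberg adjustment over all 15185 genes and a threshold of 0.05. Unadjusted p-values are from the same fit, and voom is from limma 3.58.1. DESeq2 1.42.0, library totals, its size factors, other filters, a replicate block and omission of each library were alternatives. The scripts were tested on simulated data. Principal components used log2 CPM with a prior count of 2. Depth ran from 17123748 to 28610649 counts, and intervals are fit intervals over 3 libraries per genotype. No pair of libraries agreed within sampling noise: the chi-square statistic per gene was 14.0 to 98.5 over the pairs.

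The members and gene lists were chosen with earlier results of these data known. Every target could be named, with values in every library for those with an unadjusted p below 0.05, groups that did not overlap, a DESeq2 call, or a place in a chosen list (Pdcd4, Btg2, Rhob, Rasa1, Ppara, Stat3, Bcl2, Apaf1, Sod3, Tgfbi, Spg20, Plekha1, Cdc25a and Acvr2a). Sesn1, Dusp8, Tiam1 and Matn2 were added after their values were seen. From each partner list the gene with the smallest p and up to 3 more could be named. Gene positions are 1-based on mm10, from the deposited table, whose stop lay 1 base past the gene end. UTR sequence came from GENCODE vM1, built on NCBIM37, and was used without coordinates. Values of 1 partner list and 1 matched sequence are not reported here.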

Additional observations from a re-analysis of the deposited data

How the results depend on the processing

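No reported target passed the adjusted threshold in edgeR or limma voom under any alternative run. The number of genes called was 0 in edgeR with all 6 libraries, 69 with DESeq2, and 0 to 9 when 1 library was left out of edgeR, while DESeq2 without 1 library, added after seeing the data, called 79, 107 and 27 without wild type replicates 1 to 3 and 51, 29 and 9 without knockout replicates 1 to 3. The number of targets called was 1 with DESeq2 and 0 to 1 without 1 library there: Spg20 without wild type replicate 1 or 3, and Plekha1 without wild type replicate 2. The labels do not state that replicate numbers pair the samples. Correlations of same-numbered deviations were -0.27, -0.18 and -0.08, which cannot settle pairing with 3 libraries a genotype. With a replicate block edgeR called 0 genes, 572 at an unadjusted p below 0.05 against 955, and DESeq2 with the block, also added, called 19 genes and 0 targets. Under the block the log2 fold change of Btg2 was -0.039 (edgeR) and -0.033 (DESeq2).

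With library totals the sign turned for Map2k3 (0.019), Marcks (0.0062) and Stat3 (0.015), and the median of all genes was 0.04. Genes at an unadjusted p below 0.05 in edgeR then numbered 1019, 643 higher and 376 lower. In the main run they numbered 955, 433 higher and 522 lower. With limma voom the sign turned for Btg2 (-0.043) and Matn2 (-0.0065). Leaving out 1 library turned the sign of 14 targets, whose log2 fold changes ran from -0.10 to 0.39 for Sesn1, -0.50 to 0.00081 for Rhob, -0.10 to 0.12 for Map2k3, -0.91 to 0.023 for Dusp8, -0.26 to 0.11 for Marcks, -0.025 to 0.16 for Satb1, -0.23 to 0.18 for Matn2, -0.15 to 0.0029 for Sod3, -0.38 to 0.27 for Btg2, -0.46 to 0.76 for Tiam1, -0.019 to 0.15 for Nfib, -0.11 to 0.046 for Stat3, -0.041 to 0.32 for Peli1 and -0.56 to 0.078 for Tgfbi. Group and partner list values without 1 library were added after seeing the data. The causes were not tested. With 3 libraries a genotype, Spg20 at 1.57-fold did not pass the adjusted test.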

Other observations

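Per kilobase of the longest coding transcript, averaged over the 6 libraries, the targets ran from Sod3 at 743 CPM per kb and Btg2 at 674 CPM per kb to Ppara at 1.06 and Tiam1 at 0.124 CPM per kb. Rhob followed at 166, Ski at 73.2 and Map2k3 at 67.2 CPM per kb. Spg20 was at 20.02 CPM per kb and Pdcd4 at 5.26 CPM per kb, with 3.93 to 6.61 CPM per kb over the libraries. Between libraries the highest value was 11.3 times the lowest for Tiam1, which had as few as 3 counts, 3.45 times for Acvr2a, 3.37 times for Dusp8 and 3.18 times for Tgfbi, but 1.13 times for Fbxo11 and 1.24 times for Stat3.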
